A study of Mus musculus with 12 samples.

Results

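The genes described here encode the presynaptic vesicle release machinery, the proteins with which a nerve terminal stores, docks, fuses and retrieves synaptic vesicles. Their 32 members were given as a list of symbols chosen by function and not by any measured value: vesicle membrane proteins and synapsins, SNARE proteins with their chaperones and complexins, synaptotagmins, proteins of the active zone, and proteins of endocytosis. All 32 were among the 21492 genes of the deposited table, and all 32 had values high enough to be tested in every comparison. The animals were male mice of the strain C57BL/6J, aged 70 postnatal days, either wild type (WT) or transgenic for Shank3 (TG), and RNA was taken from their striatum, and the 4 groups, with 3 libraries each, were WT input, TG input, WT polysome and TG polysome. Input is RNA of synaptosomes, the nerve terminals and adhering postsynaptic membrane that reseal when brain tissue is homogenized, and polysome is RNA of the polyribosomes in those synaptosomes, that is, of transcripts carrying several ribosomes. Strain, sex, age and tissue were the same in all groups, and the promoter that drives the transgene, the protein form it encodes and any pooling of animals are not stated by the labels.

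As background, a vesicle is filled, tethered by synapsins, and brought to the active zone, where the scaffolds Bassoon and Piccolo, the RIM proteins, ELKS, liprins and Munc13 prepare it for release. Fusion is carried out by the SNARE proteins synaptobrevin on the vesicle and syntaxin and SNAP-25 on the plasma membrane. Complexins clamp and promote it, and synaptotagmin triggers it when calcium enters. NSF and its adaptors take the SNARE complex apart, and dynamin, amphiphysin, synaptojanin and AP180 retrieve the membrane. In the striatum the terminals belong to local medium spiny neurons and interneurons and to axons from cortex, thalamus and midbrain, so these transcripts can come from cell bodies caught in the preparation, from local neurons or from axons that enter from elsewhere.

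Shank3, a scaffold of the excitatory postsynaptic density, checked the labels: it was higher in the TG library of each number, although the groups overlapped (2121, 4162 and 5858 normalized counts in WT and 5456, 17500 and 14107 in TG input; 1501, 3702 and 5848 in WT and 5012, 12626 and 12252 in TG polysome libraries), with a log2 difference of 1.57 ± 0.49 (SE) in input and 1.53 ± 0.52 in polysome libraries, which did not pass the test (adjusted p = 1.00 in both, limma) and in polysome passed when the replicate number was a block (adjusted p = 0.0205). Estimated depth ranged from 62.0 to 85.4 M reads in input and from 76.9 to 102.6 M in polysome libraries. The striatal markers Drd1 (14077 to 43278 normalized counts), Ppp1r1b (12285 to 46748) and Penk (38325 to 105390) were present in all 12 libraries, but so were the cortical markers Slc17a7 (22905 to 122010) and Tbr1 (1352 to 3674) and the astrocyte marker Slc1a2 (174430 to 319690). Of the 6 dopaminergic markers, Pitx3 (listed at 0 in 6 libraries), Slc6a3 (6.10 to 41.0) and Slc18a2 (17.4 to 203) were the lowest, and Th (126 to 326), Ddc (160 to 332) and Nr4a2 (732 to 2299) were present in every library. These are bulk samples, in which fewer cells of a type and less RNA per cell cannot be told apart. Mitochondrial ribosomal RNA took 39.1% to 46.8% of the input and 23.1% to 34.0% of the polysome signal, and the 32 genes took 1.15% to 1.64% and 1.21% to 1.53% of the rest.

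The level of the 32 genes spanned a wide range. Levels are compared between genes as the normalized count per kilobase of the annotated transcript with the longest coding sequence, and in WT input Snap25, the plasma membrane SNARE, had the highest value (39023 ± 1522, SD, n = 3). Syp, the vesicle membrane protein synaptophysin, followed at 38052 ± 9637 and Syt1, the calcium sensor of fast release, at 28829 ± 6211, each within the spread of the gene above it. Rab3a, a small GTPase of the vesicle, came next at 13692 ± 342 and lay below Syt1 by more than their spread. At the other end, Rims3 (495 ± 50.8), a short member of the RIM family, and Syn3 (288 ± 16.8), the least abundant synapsin, each lay below the gene above them by more than the spread. Of the 31 steps between neighbours in this order, 25 were within the spread of the libraries, by the larger SD of the pair. The middle of the order, for example from Vamp1 (1589 ± 261) to Erc2 (1272 ± 239), is therefore not resolved. The annotated transcript of Rims2 holds its 4719 coding bases alone, so its level per kilobase may be too high. The order also depends on the transcript used, including at its top. All annotated exons of Snap25 hold 6791 bases against 2116 in that transcript, those of Syp 5211 against 2591 and those of Vamp1 10167 against 1400. An order by all exons is not given here.

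The comparison of polysome with input libraries asked which transcripts were relatively more or less abundant on synaptosomal polyribosomes than in the synaptosomal RNA as a whole. In WT, 9 of the 32 genes differed (adjusted p under 0.05, limma on log2(value + 1)): Sncb and Vamp2 were higher on polysomes, and Unc13a, Pclo, Ppfia3, Amph, Rims1, Rims2 and Syt11 were lower. Among all 16962 genes tested, 14.0% were called, 5.36% as higher and 8.59% as lower. In TG the same 9 genes differed in the same direction, and Rab3c was called as higher and Bsn as lower, which made 11 of 32 against 18.1% of all genes (8.19% higher, 9.86% lower). The median log2 difference of the 32 genes was -0.35 in WT and -0.32 in TG, beside 0.03 for all genes in both, and 24 of the 32 were negative in each genotype. Polysome and input values did not overlap for 14 of the 32 genes in WT (3 above, 11 below) and 18 in TG (5 above, 13 below), and among all genes for 37.0% in WT (18.0% above, 19.0% below) and 36.4% in TG (18.0% above, 18.4% below). When the number that pairs input and polysome libraries within a genotype was a block, 14 genes were called in WT (4 higher and 10 lower, with 29.8% of all genes called) and 15 in TG (4 higher and 11 lower, 33.2% of all genes). The deposited values are scaled relative to each library, so a difference is relative to other transcripts of the library, and the share of a transcript's molecules on ribosomes was not measured.

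**Figure D1:**
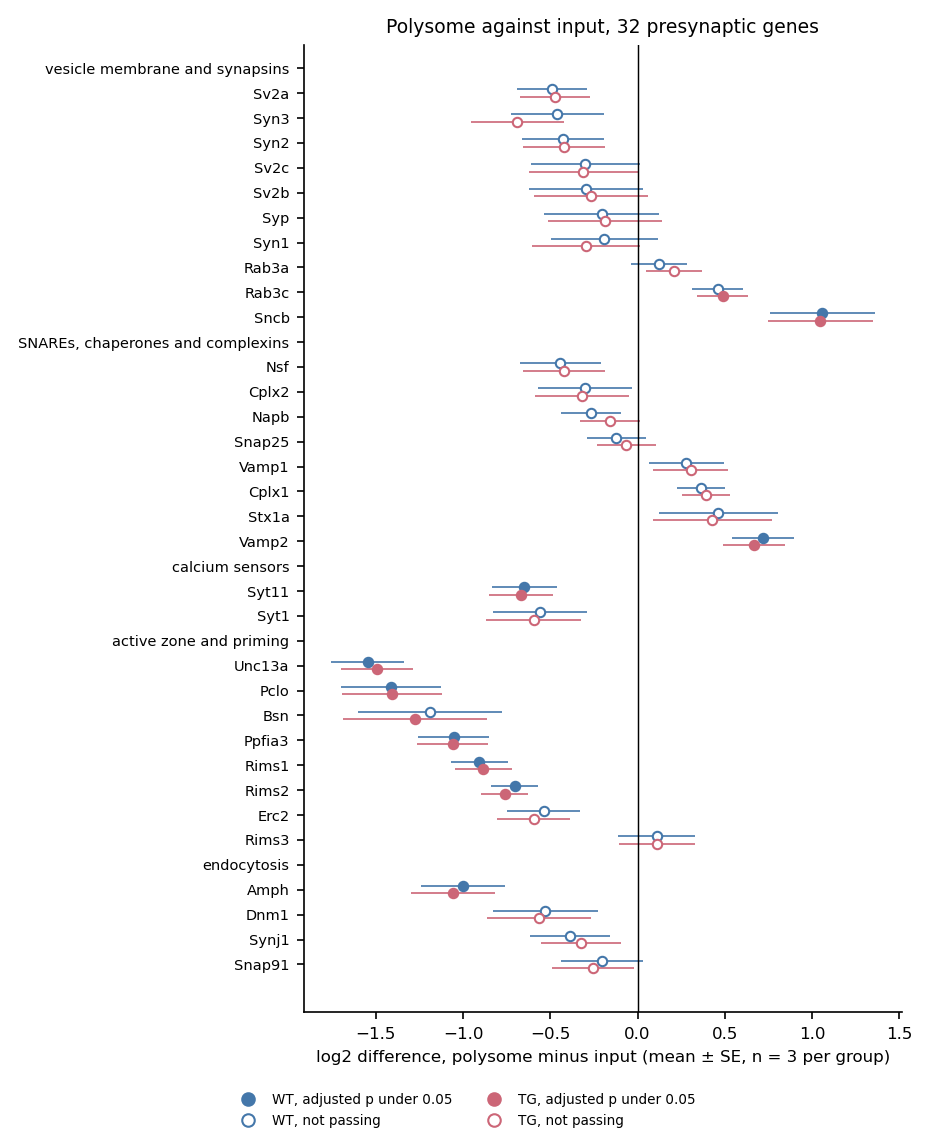
Log2 difference between polysome and input libraries of each of the 32 genes in WT (blue) and TG (red), as the mean ± SE of the fit with 3 libraries a group, grouped by role; filled points passed the test. Filled points lie on the left mainly among active zone genes, down to Unc13a at -1.55 in WT, and on the right for Sncb and Vamp2 in both genotypes and Rab3c in TG.

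WT and TG libraries are separate samples, although they share replicate numbers, so the 2 sets of differences can be set side by side. All 32 genes had the same sign in both genotypes, and the differences in WT and TG correlated across genes at r = 0.99 (Spearman rho = 0.99, a description over 32 genes that come from the same libraries). The largest gap between genotypes was 0.23, for Syn3. The same values over all genes are not given here, so this likeness is not a result particular to the 32 genes.

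Translation begins at the start codon, and the bases around it take part in its selection by the scanning small ribosomal subunit, so they are shown for the members that differed between polysome and input and whose annotated transcript has a 5′ leader. The sequences are those of the transcript with the longest coding sequence in GENCODE mouse release M21 on GRCm38, 5′ to 3′, and the capitals mark the start codon with the 3 bases before it and the 1 base after it. The genes higher on polysomes come first, then the lower ones.
Sncb: gccgccAGGATGGacgtgttc
Vamp2: acccccGCCATGTcggctacc
Rab3c: ttgcctACAATGAgacacgag
Unc13a: cctggaGTCATGTctctgctg
Pclo: cgccgaGCCATGGgcaacgag
Bsn: ctgcccACCATGGgcaacgag
Ppfia3: accgccGCCATGAtgtgcgag
Amph: gcagcaGCCATGGccgacatc
Syt11: gattacAACATGGctgagatc
All 9 have a purine at the third base before the start codon, and both the higher and the lower set hold contexts with and without a G right after it. Among the members 27 of 30 with a leader have that purine, as do 83.97% of 20171 coding genes, and 15 of 30 have both the purine and the G, as do 40.99% of coding genes. The scaffolds Pclo and Bsn share the printed bases from the start codon on.

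The active zone genes held most of the lower values, with 5 of 8 called as lower in WT and 6 of 8 in TG. Their median log2 difference was -0.98 in WT and -0.97 in TG, and none was called as higher. Among all genes tested 8.59% in WT and 9.86% in TG were called as lower. All of these active zone genes but Rims3 have coding sequences over 3000 bases. Among all coding genes over 4500 bases, 42.36% in WT and 45.95% in TG were called as lower. For those of 3000 to 4500 bases the shares were 23.45% and 26.9%. Unc13a (ENSMUSG00000034799, chromosome 8, 71624417 to 71671757, minus strand of GRCm38) encodes Munc13-1, which opens syntaxin so that vesicles become ready to fuse. It had 15167, 13627 and 16253 normalized counts in the WT input libraries numbered 1 to 3 and 6137, 5195 and 4224 in the WT polysome libraries. In TG it had 12434, 15062 and 19280 in input and 5101, 6888 and 4599 in polysome libraries. Input and polysome values did not overlap in either genotype, and every polysome library was lower than its same-numbered input. The log2 difference was -1.55 ± 0.21 (SE) in WT (adjusted p = 0.00132) and -1.49 ± 0.21 in TG (adjusted p = 0.00156), the largest of the 32 genes in both.

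Pclo (chromosome 5, 14514918 to 14863459, plus strand) and Bsn (chromosome 9, 108096022 to 108190384, minus strand) encode Piccolo and Bassoon, the very large scaffolds that organize the active zone. Pclo had 34984, 30972 and 53695 normalized counts in WT input and 14091, 11942 and 18341 in WT polysome libraries, and 29215, 35292 and 59667 in TG input and 12094, 15594 and 17543 in TG polysome libraries. Its groups did not overlap, and the log2 difference was -1.41 ± 0.29 in both genotypes (adjusted p = 0.00992 in WT and 0.00846 in TG). For Bsn the values were 18823, 14745 and 33775 in WT input, 7213, 7437 and 14768 in WT polysome, 15993, 23592 and 38069 in TG input and 6292, 11325 and 14160 in TG polysome libraries. The library numbered 3 had the highest Bsn value in every group, and in WT its polysome value of 14768 lay above the input value of number 2, so the WT groups overlapped. The log2 difference of Bsn was -1.19 ± 0.41 in WT, which did not pass (adjusted p = 0.0727), and -1.28 ± 0.41 in TG (adjusted p = 0.0490). With the block, which removes the difference between numbers, Bsn passed in both (adjusted p = 0.00107 in WT and 0.000622 in TG).

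Rims1 (chromosome 1, 22286251 to 22805994, minus strand) and Rims2 (chromosome 15, 39198261 to 39684372, plus strand) encode the RIM proteins that link vesicles, calcium channels and Munc13. Rims1 had 10017, 7873 and 8725 normalized counts in WT input and 5534, 3947 and 4765 in WT polysome libraries, and 9124, 7909 and 8410 in TG input and 5079, 4157 and 4561 in TG polysome libraries. The log2 difference was -0.91 ± 0.16 in WT (adjusted p = 0.00608) and -0.89 ± 0.16 in TG (adjusted p = 0.00572), with values in the 6 same-number pairs from -1.00 to -0.85. Rims2 was among the least variable of the 32 genes. It had 6378, 6987 and 6950 in WT input, 4367, 3548 and 4612 in WT polysome, 6720, 6817 and 6878 in TG input and 3959, 4049 and 4037 in TG polysome libraries, a log2 difference of -0.71 ± 0.14 (adjusted p = 0.00806) and -0.76 ± 0.14 (adjusted p = 0.00480). Neither RIM gene had an overlap between input and polysome in either genotype.

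Ppfia3 (chromosome 7, 45339122 to 45367019, minus strand), which encodes the scaffold liprin-alpha-3, had 5127, 3869 and 6336 normalized counts in WT input and 2243, 2327 and 2695 in WT polysome libraries. In TG it had 4450, 4239 and 6257 in input and 2123, 2332 and 2626 in polysome libraries, again with no overlap. The log2 difference was -1.05 ± 0.20 in WT (adjusted p = 0.00813) and -1.06 ± 0.20 in TG (adjusted p = 0.00661). Erc2, which encodes the scaffold ELKS2, was -0.54 ± 0.21 and -0.59 ± 0.21 and passed only with the block (adjusted p = 0.00916 in WT and 0.00526 in TG). Rims3, which encodes a RIM isoform that has little more than a C-terminal C2 domain, was the 1 active zone gene that was not lower, at 0.11 ± 0.22 in both genotypes.

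Single libraries were left out only in the fit without the block. The calls of Unc13a, Ppfia3, Rims1 and Rims2 held when any single library was left out. The WT call of Pclo was lost without input number 3 (log2 difference -1.18, adjusted p = 0.0503), and the TG call of Bsn was lost without input number 2 or 3 or any polysome library (-1.53 to -0.94, adjusted p from 0.0623 to 0.187). Pclo passed with the block in both genotypes (limma adjusted p = 0.000660 in WT and 0.000589 in TG). Exons of Unc13a overlap those of Colgalt1 on the other strand, and those of Pclo, Ppfia3 and Erc2 overlap noncoding genes there. Their values therefore depend on whether the authors' counting used strand, which no label states. The same holds for Syn1 (Araf), Syn2 (Timp4), Syn3 (Timp3), Rab3a (Mpv17l2), Syp, Sv2b and Synj1. Bsn overlaps a noncoding gene on its own strand, which counting by strand would not separate.

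**Figure D2:**
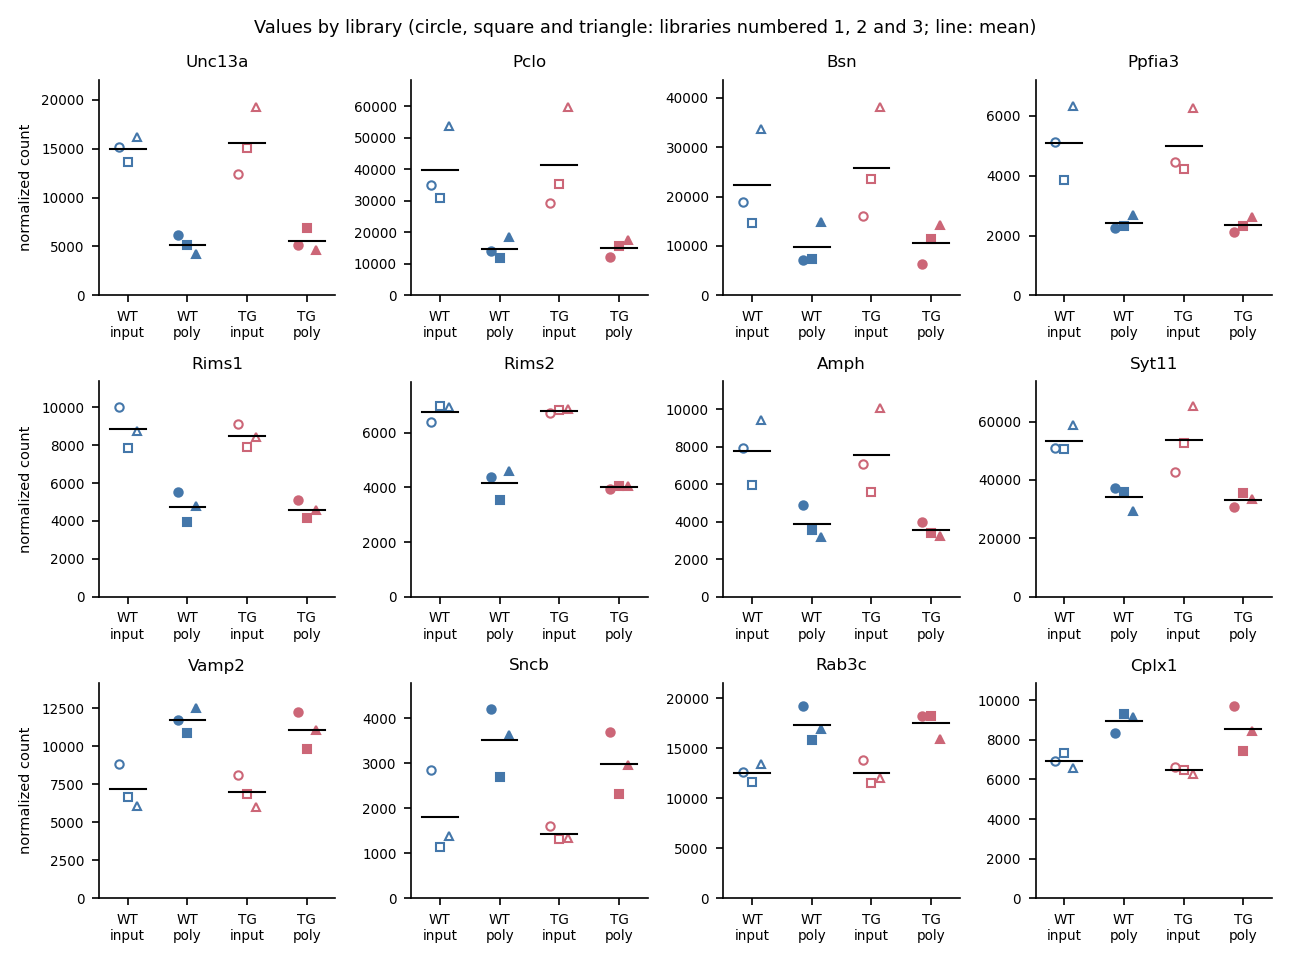
Normalized count of 12 genes in each library (circle, square and triangle for the numbers 1, 2 and 3; open for input, filled for polysome; line for the mean; each axis starts at 0). Polysome values lie below all input values of the same genotype for Unc13a, Pclo, Ppfia3, Rims1, Rims2, Amph and Syt11, and above them for Vamp2, Rab3c and Cplx1; Bsn and Sncb overlap in WT. Among all genes 37.0% in WT and 36.4% in TG have no overlap.

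Of the 4 endocytosis genes, Amph was called as lower in both genotypes and all 4 were negative. Amph (chromosome 13, 18948205 to 19150921, plus strand) encodes amphiphysin, a membrane-bending protein that binds dynamin and clathrin. It had 7920, 5970 and 9401 normalized counts in WT input, 4906, 3564 and 3189 in WT polysome, 7068, 5556 and 10081 in TG input and 3978, 3402 and 3256 in TG polysome libraries. Input and polysome did not overlap, and the log2 difference was -1.00 ± 0.24 (adjusted p = 0.0194) in WT and -1.06 ± 0.24 (adjusted p = 0.0126) in TG. The pair numbered 3 was the farthest apart, and the WT call was lost without input 3, polysome 2 or polysome 3 (-0.95 to -0.85, adjusted p from 0.0602 to 0.0906) and the TG call without input 3 or polysome 3 (-1.00 to -0.83, adjusted p from 0.0510 to 0.0532). Amph passed with the block in both genotypes (limma adjusted p = 0.0106 in WT and 0.00698 in TG). Dnm1, which encodes the fission GTPase dynamin 1, was -0.53 ± 0.30 in WT and -0.57 ± 0.30 in TG. Synj1, which encodes the lipid phosphatase synaptojanin 1, was -0.39 ± 0.23 and -0.32 ± 0.23, and Snap91, which encodes the clathrin adaptor AP180, was -0.21 ± 0.23 and -0.26 ± 0.23. None of these 3 passed with or without the block.

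Of the 2 synaptotagmins, Syt11 was called in both genotypes. Syt11 (chromosome 3, 88744700 to 88775164, minus strand) encodes a family member that does not bind calcium. It had 50890, 50586 and 58746 normalized counts in WT input and 37152, 35811 and 29497 in WT polysome libraries, and 42626, 52777 and 65234 in TG input and 30653, 35575 and 33565 in TG polysome libraries. The groups did not overlap, and the log2 difference was -0.65 ± 0.18 (adjusted p = 0.0361) in WT and -0.67 ± 0.18 (adjusted p = 0.0274) in TG. In WT the call was lost whichever library was left out (-0.71 to -0.55, adjusted p from 0.0528 to 0.137), and in TG it was lost without input 2, input 3, polysome 1 or polysome 3 (-0.68 to -0.51, adjusted p from 0.0724 to 0.105). With the block it passed in both genotypes (limma adjusted p = 0.0151 in WT and 0.0111 in TG). Syt11 shares 7.23% of its 31-base sequences with other genes, the most of the 32. Syt1 was -0.56 ± 0.27 in WT and -0.59 ± 0.27 in TG, with the difference negative in all 6 pairs, and passed only in TG with the block (adjusted p = 0.0469).

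The SNARE group split by sign, with 4 of 8 genes positive and 4 negative in each genotype. Vamp2 (chromosome 11, 69088490 to 69092384, plus strand) encodes synaptobrevin 2, the vesicle SNARE. It had 8860, 6640 and 6069 normalized counts in WT input and 11704, 10847 and 12537 in WT polysome libraries, and 8135, 6833 and 6005 in TG input and 12275, 9818 and 11059 in TG polysome libraries. Every polysome library lay above every input library of its genotype. The log2 difference was 0.72 ± 0.18 in WT (adjusted p = 0.0210) and 0.67 ± 0.18 in TG (adjusted p = 0.0236). The WT call was lost without input 2, input 3 or polysome 3 (0.61 to 0.67, adjusted p from 0.0651 to 0.0982), and the TG call without input 2, input 3, polysome 1 or polysome 3 (0.56 to 0.66, adjusted p from 0.0694 to 0.0935). Vamp2 passed with the block in both genotypes (limma adjusted p = 0.00877 in WT and 0.00901 in TG).

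The other SNARE genes did not pass without the block. Cplx1, which encodes complexin 1, was 0.36 ± 0.14 in WT and 0.39 ± 0.14 in TG, was higher on polysomes in all 6 pairs without overlap of the groups, and passed with the block (adjusted p = 0.0461 and 0.0315). Vamp1, which encodes synaptobrevin 1, was 0.28 ± 0.22 and 0.30 ± 0.22, and Stx1a, the plasma membrane syntaxin, was 0.46 ± 0.34 and 0.43 ± 0.34. Both were higher on polysomes in all 6 pairs, but by as little as 0.003 for Stx1a and 0.02 for Vamp1. Their input and polysome values overlapped in both genotypes. Snap25 was -0.12 ± 0.17 and -0.07 ± 0.17. Nsf, the ATPase that recycles SNARE complexes, was -0.44 ± 0.23 and -0.42 ± 0.23, its adaptor gene Napb was -0.27 ± 0.17 and -0.16 ± 0.17, and Cplx2, which encodes complexin 2, was -0.30 ± 0.27 and -0.32 ± 0.27. Nsf and Napb were lower on polysomes in all 6 pairs. The share of all genes with the same sign in all 6 pairs is not given here.

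Among the 10 vesicle membrane and synapsin genes, Sncb was called as higher in both genotypes and Rab3c in TG. Sncb (chromosome 13, 54758860 to 54766595, minus strand) encodes beta-synuclein, a small protein that associates with vesicles. It had 2851, 1139 and 1394 normalized counts in WT input, 4194, 2691 and 3636 in WT polysome, 1606, 1327 and 1338 in TG input and 3685, 2317 and 2952 in TG polysome libraries. Input number 1 in WT lay above polysome number 2, so the WT groups overlapped, while each of the 6 pairs was higher on polysomes, by 0.56 to 1.38. The log2 difference was 1.06 ± 0.30 in WT (adjusted p = 0.0354) and 1.05 ± 0.30 in TG (adjusted p = 0.0314). The WT call was lost without input 2, input 3, polysome 1 or polysome 3 (0.79 to 1.02, adjusted p from 0.102 to 0.134), as was the TG call without the TG libraries of the same fractions and numbers (0.88 to 1.04, adjusted p from 0.0868 to 0.118). With the block Sncb passed in both genotypes (limma adjusted p = 0.00408 in WT and 0.00349 in TG).

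Rab3c (chromosome 13, 110054187 to 110280996, minus strand) encodes a vesicle GTPase of the Rab3 family. It had 12639, 11651 and 13403 normalized counts in WT input, 19192, 15824 and 16927 in WT polysome, 13872, 11538 and 12060 in TG input and 18247, 18253 and 15971 in TG polysome libraries, with no overlap in either genotype. The log2 difference was 0.46 ± 0.15 in WT (adjusted p = 0.0535) and 0.49 ± 0.15 in TG (adjusted p = 0.0371), so the genotypes stand on different sides of the threshold with nearly the same value. The TG call was lost without input 2, input 3 or any polysome library (0.43 to 0.55, adjusted p from 0.0597 to 0.123), and with the block both passed (adjusted p = 0.0204 and 0.0138). The remaining 8 genes of the group ranged from -0.49 to 0.12 in WT and from -0.69 to 0.21 in TG. Rab3a was the 1 positive gene of these, and the synapsins Syn1, Syn2 and Syn3, the vesicle proteins Sv2a, Sv2b and Sv2c and Syp were negative. With the block Sv2a passed in WT (-0.49 ± 0.16, adjusted p = 0.0488) and Syn3 in TG (-0.69 ± 0.19, adjusted p = 0.0231).

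The difference between polysome and input followed the length of the coding sequence, which the choice of members did not use. Across the 32 genes Spearman's rho between coding length and the log2 difference was -0.80 in WT and -0.81 in TG, a description over genes that share libraries. The 5 genes under 600 coding bases (Sncb, Vamp2, Vamp1, Cplx1 and Cplx2) had a median difference of 0.36 in WT and 0.39 in TG, and the 5 over 4500 bases (Pclo, Bsn, Unc13a, Synj1 and Rims2) had -1.19 and -1.28. The longest of these, Pclo, has 15207 coding bases and Sncb, the shortest of the 32, has 402. Length went with the difference in all coding genes too: rho was -0.56 in WT and -0.55 in TG over 14957 genes, the median was 0.43 in both genotypes for those under 600 bases and -0.67 in WT and -0.71 in TG for those over 4500. No such relation was seen with the length of the 3′ untranslated region (rho = -0.08 in WT and -0.02 in TG over the 32 genes). That length is from the transcript with the longest coding sequence and may be incomplete: it is 0 bases for Rims2 and 369 for Unc13a. A relation was seen with the number of exons (-0.68 and -0.71) and with transcript length (-0.56 and -0.52).

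Within one length range the members were not alike. Among the members over 4500 bases, Synj1, with 4824 coding bases, was -0.39 in WT, above the median of -0.67 for all genes of that range, and Unc13a, with 5196, was -1.55. Amph (2073 bases) at -1.00 lay below the median of -0.27 for all genes of 2000 to 3000 bases, and Syt11 (1293 bases) and Syt1 (1266 bases), at -0.65 and -0.56, lay below the median of 0.02 for all genes of 1000 to 2000 bases. When a trend of level on coding length was removed within each library before the fit, an alternative chosen after the data were seen, 5.73% of all genes were called in WT and 8.56% in TG. Of the 32 genes 2 remained called in WT, Unc13a (-0.94, adjusted p = 0.00724) and Syt11 (-0.69, adjusted p = 0.0429). In TG 3 remained, Unc13a (-0.87, adjusted p = 0.00811), Syt11 (-0.74, adjusted p = 0.0277) and Amph (-0.84, adjusted p = 0.0392).

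**Figure D3:**
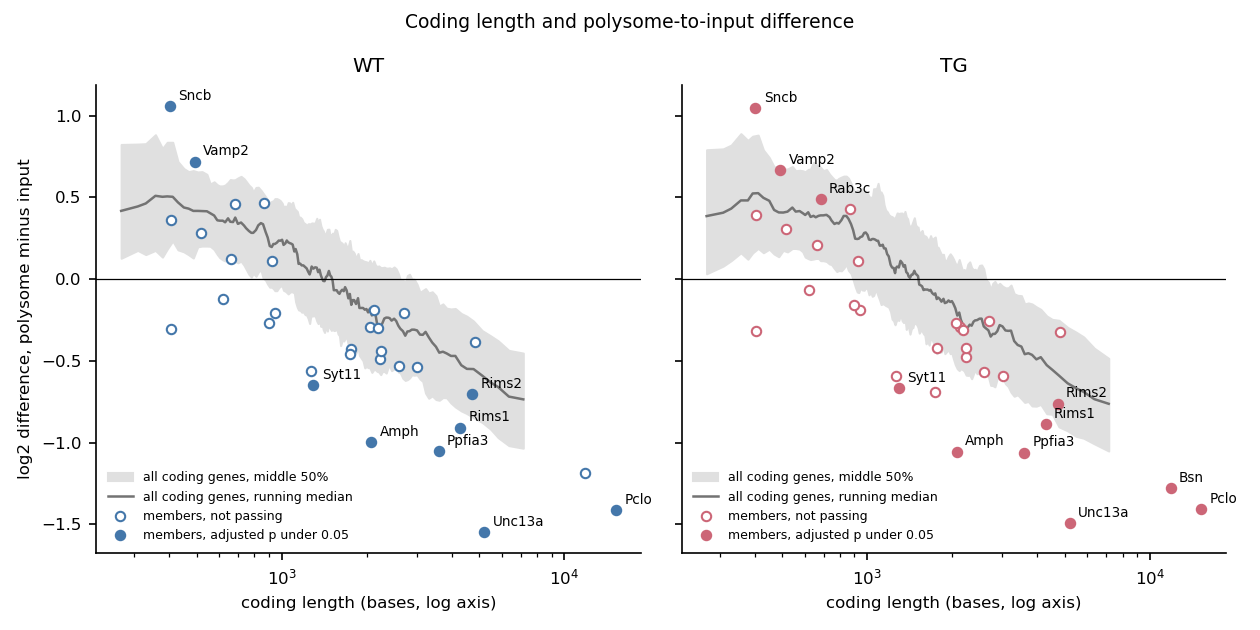
Log2 difference between polysome and input against coding length in bases (log axis) in WT and TG; points are the 32 genes, filled where they passed the test, the line is the running median of all coding genes and the band their middle 50%. The points and the line fall from left to right, from Sncb at 1.06 in WT to Pclo and Unc13a at -1.41 and -1.55; of the 30 genes within the range of the line, 11 lie below the band in WT and in TG, and 2 and 1 above it.

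A ratio of 2 related genes within a library does not depend on how libraries were scaled, so the paralogs among the members were compared in this way. Of the 14 pairs, 5 passed without the replicate block and 0 with it (exact permutation of the fraction within genotype over 400 arrangements, two-sided, adjusted over the 14 pairs, a test chosen after the data were seen). The test with the block has too few arrangements to decide for these ratios, as described below. The ratio of Rims1 to Rims3 was lower on polysomes by a log2 difference of -1.01 ± 0.12 (SE over 6 same-number pairs, p = 0.005, the smallest these permutations can give, adjusted p = 0.035) and that of Rims2 to Rims3 by -0.84 ± 0.13 (p = 0.005, adjusted p = 0.035), each in 6 of 6 pairs. The 3 genes differ in coding length: 4275, 4719 and 924 bases.

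Cplx1 gained on Cplx2 by 0.69 ± 0.06 on polysomes, in 6 of 6 pairs (exact permutation p = 0.015, adjusted p = 0.042). These complexins have the same coding length, 405 bases, and 3′ untranslated regions of 1575 and 4208 bases. Vamp1 lost on Vamp2 by -0.40 ± 0.05 (p = 0.015, adjusted p = 0.042), and Rab3a on Rab3c by -0.31 ± 0.08 (p = 0.01, adjusted p = 0.042), in 6 of 6 pairs each by exact permutation. Rab3a and Rab3c have coding sequences of 663 and 684 bases and 3′ untranslated regions of 547 and 7628 bases, so in this pair the gene with the longer region was the one relatively higher on polysomes, and in the complexins the one with the shorter. The other 9 ratios did not pass, among them Bsn to Pclo (0.18 ± 0.09, p = 0.255) and Syt1 to Syt11 (0.08 ± 0.06, p = 0.56, exact permutation). Of these, Rims1 to Rims2 (-0.16 ± 0.05, p = 0.125), Sv2a to Sv2b (-0.20 ± 0.03, p = 0.28) and Syn1 to Syn3 (0.33 ± 0.08, p = 0.15, exact permutation) had one sign in 6 of 6 same-number pairs. With the number as a replicate block (exact swap of input and polysome within each of the 6 pairs, 64 arrangements, two-sided), the 5 ratios and these 3 all had p = 0.03125, the smallest the swaps can give, and adjusted p = 0.0547, so none passed. The adjusted p could fall under 0.05 only if more ratios had reached this smallest p. That outcome was therefore set by the number of swaps, and it cannot decide for these ratios.

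Other genes of the presynapse, a list of 113 of which 110 were tested, are given by role, from the fit without the block unless stated. With the block 24 were called as higher and 23 as lower in WT, beside 13.9% and 15.9% of all genes. In TG these were 23 and 25, beside 16.7% and 16.6%. The counts without the block follow. In WT 4 were called as higher and 14 as lower, beside 14.0% of all genes called (5.36% higher and 8.59% lower), and in TG 10 and 16, beside 18.1% (8.19% and 9.86%), with a median log2 difference of -0.02 and -0.07 beside 0.03 for all genes. Of 20 further active zone genes, 4 were lower in WT and 6 in TG and none was higher, and of 30 further endocytosis genes 9 were lower in WT and 8 in TG, with 2 higher in TG. The 22 further vesicle membrane genes went the other way, with 3 higher in WT and 7 in TG and none lower. Of 15 further calcium sensor genes 1 was higher in each genotype and none lower, with a median of 0.21 in both. Of 23 further SNARE, chaperone and complexin genes 1 was lower in WT and 2 in TG, and none was higher. With the block, 1 active zone gene was higher in each genotype, beside 8 lower in WT and 9 in TG. In the SNARE group 1 was then higher in each, beside 2 and 3 lower. Of the vesicle membrane genes 13 and 11 were then higher and 1 lower in each. Of the calcium sensor genes 4 and 5 were higher and 1 lower in each, and of the endocytosis genes 5 were higher and 11 lower in each. Among those called without the block, the farthest apart in WT were Sypl, a synaptophysin-like vesicle protein gene (1.07 ± 0.16, adjusted p = 0.00259), and Synpr, which encodes synaptoporin (0.66 ± 0.19, adjusted p = 0.0396), on the higher side. On the lower side were Erc1, the ELKS paralog of Erc2 (-1.39 ± 0.15, adjusted p = 0.000193), and Hspa8, which encodes the chaperone that uncoats clathrin (-1.20 ± 0.30, adjusted p = 0.0236). In TG, Svop, a gene for an SV2-related vesicle protein, and Sypl were at 0.99 ± 0.27 and 0.99 ± 0.16 (adjusted p = 0.0239 and 0.00336), and Erc1 and Hspa8 at -1.42 ± 0.15 and -1.15 ± 0.30 (adjusted p = 0.000136 and 0.0229). Coding length had a rho of -0.65 with the difference over these 110 genes in both genotypes.

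The genotype comparison asked whether presynaptic transcripts differ with the Shank3 transgene. In input none of the 32 genes passed the test (0% of 16341 genes called, limma), and none had an unadjusted p under 0.05, against 80 of all genes. Their log2 differences ran from -0.23 to 0.22, with a median of -0.06 beside -0.01 for all genes, and 24 of 32 were negative beside 52.9% of all genes. The sign of this median rests on single libraries: it was 0.00 without WT input 1 and 0.03 without TG input 2, and by number it was -0.18, -0.02 and 0.04 in numbers 1, 2 and 3. In each role the gene with the smallest p is given. Sv2c, a vesicle protein gene with high expression in the basal ganglia, had 11220, 14475 and 11330 normalized counts in WT and 11359, 14797 and 14399 in TG input (0.13 ± 0.17, SE). Cplx2 had 21728, 33828 and 29068 in WT and 27523, 41627 and 29367 in TG input, higher in TG in each pair (0.22 ± 0.23, 95% interval -0.31 to 0.75).

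Syt1 had 147900, 105570 and 163410 in WT and 106710, 102660 and 186040 in TG input (-0.11 ± 0.29, 95% interval -0.77 to 0.56), with numbers 1 and 2 lower and number 3 higher in TG. Rims3 had 3020, 3038 and 3601 in WT and 3085, 3026 and 2952 in TG input (-0.09 ± 0.14). For Synj1 the values ran 18899, 13469 and 15162 in WT input, against 15346, 12503 and 14898 in TG input (-0.14 ± 0.18), lower in TG in each pair. Rab3a was the 1 gene of the 32 whose TG and WT input values did not overlap, with 20809, 19219 and 19844 in TG below 20824, 21215 and 21876 in WT, and 2.62% of all genes had no overlap. The gap between its groups was 20809 against 20824, and the difference was -0.09 ± 0.13.

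On polysomes none of the 32 genes passed either (0% of 16312 genes called without the block, 0.00613% with it), and none had an unadjusted p under 0.05, against 53 of all genes. The range was -0.26 to 0.20 and the median -0.05 beside 0.01 for all genes, with 25 of 32 negative beside 46.6% of all genes. It became 0.05 without WT polysome 1, and was -0.19, -0.01 and 0.03 in numbers 1, 2 and 3. Sncb (values above) was lower in TG in each pair (-0.23 ± 0.23, 95% interval -0.76 to 0.29). Stx1a had 4982, 3271 and 4890 normalized counts in WT and 4085, 2477 and 4540 in TG polysome libraries, lower in TG in each pair (-0.26 ± 0.27, 95% interval -0.88 to 0.35). Syt1 had 123150, 81399 and 79579 in WT and 89145, 75565 and 87836 in TG polysome libraries (-0.14 ± 0.24). Unc13a and Amph, whose values stand above, differed by 0.09 ± 0.21 and -0.11 ± 0.20. The 95% interval lay inside a log2 difference of 0.5 in both directions for 13 of the 32 genes in input (Rims2, for example, at -0.29 to 0.30) and 11 on polysomes, and reached beyond 0.5 for the others.

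**Figure D4:**
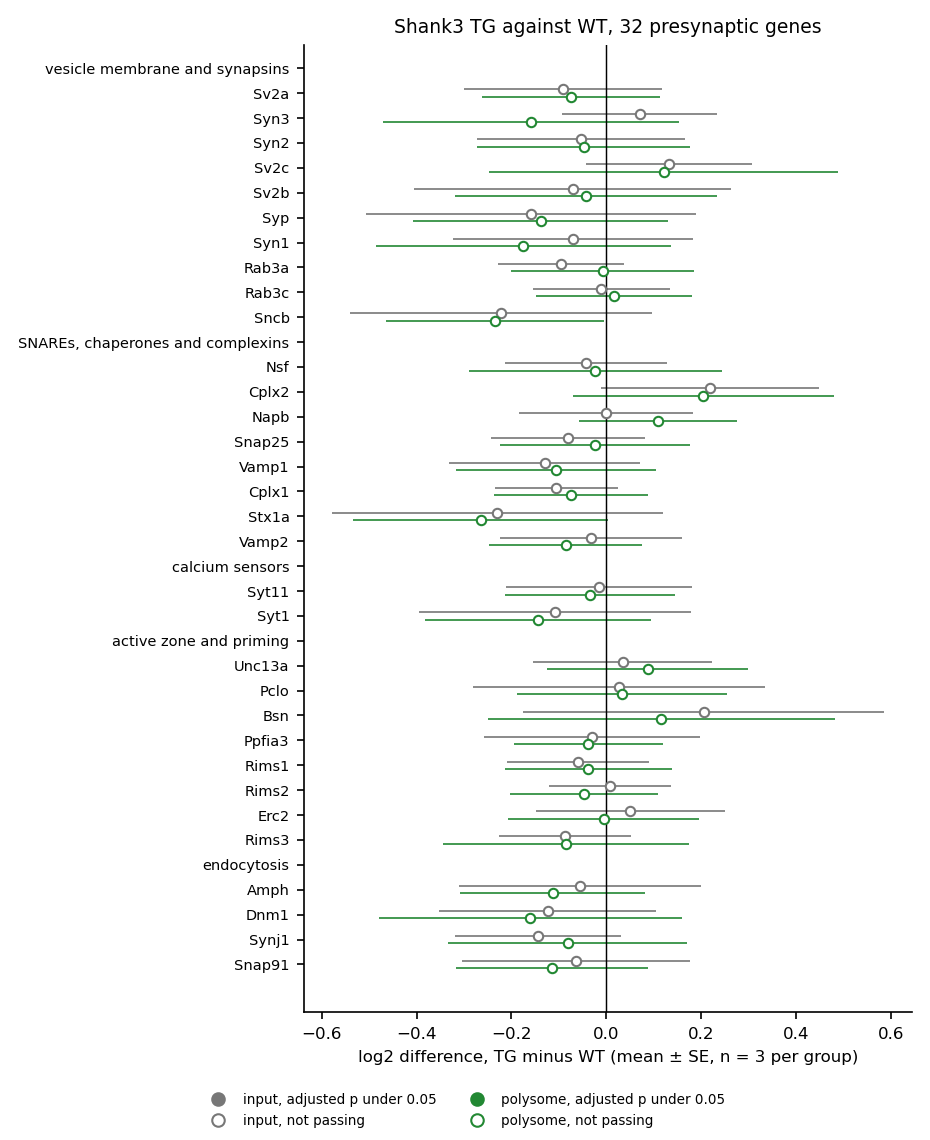
Log2 difference between TG and WT of each of the 32 genes in input (grey) and polysome libraries (green), as the mean ± SE with 3 libraries a group; open points did not pass the test. All points lie between -0.26 and 0.22 and none is filled.

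Markers of cell types differed by genotype in sign too. Of 17 medium spiny neuron markers, 17 were positive in TG in input (median 0.21) and 17 on polysomes (0.24), and of 12 cortical excitatory markers 11 and 10 were negative (-0.17 and -0.18), with none called. Positive medians were also found for oligodendrocyte (0.10 in input and 0.07 on polysomes) and blood markers (0.18 and 0.29, 5 of 5 positive in each). Negative ones were found for choroid plexus and ependymal (-0.48 and -0.43), thalamic (-0.25 and -0.08) and endothelial and mural markers (-0.11 and -0.14). The summed medium spiny level was 324430 to 691450 in WT and 396020 to 777790 in TG input, and the cortical one 44611 to 100710 and 38278 to 99554. Their part in the negative medians of the 32 genes was not tested.

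The interaction asked whether the polysome-to-input difference itself differs with genotype, and it came from the same 12 libraries as the other values. None of the 32 genes passed (0% of 16962 genes called, limma), and none had an unadjusted p under 0.05, against 94 of all genes. The median was -0.00 beside 0.02 for all genes, with 16 of 32 negative. The smallest p in each role belonged to Syn3 (-0.23 ± 0.37), Napb (0.11 ± 0.24), Syt1 (-0.04 ± 0.38), Rims2 (-0.06 ± 0.19) and Synj1 (0.06 ± 0.32). Syn3 had 684, 717 and 638 normalized counts in WT input, 577, 597 and 349 in WT polysome, 643, 811 and 694 in TG input and 436, 644 and 307 in TG polysome libraries. Napb had 26263, 25644 and 32971 in WT input, 24704, 21704 and 23759 in WT polysome, 29082, 23598 and 32348 in TG input and 27506, 22801 and 25510 in TG polysome libraries. On polysomes Synj1 had 17091, 11206 and 9006 in WT and 12364, 12390 and 9504 in TG. The 95% interval of the interaction was -1.04 to 0.58 for Syn3 and -0.47 to 0.36 for Rims2, the narrower of the 2.

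The libraries of one group also differed by replicate number. Number 2 was the lowest of its group in all 4 groups for 8 of the 32 genes (Syp, Sv2b, Sncb, Stx1a, Vamp1, Napb, Rims1 and Snap91), beside 9.63% of all genes, and the highest in all 4 for Syn3 and Sv2c, beside 10.5% of all genes. Syp, for example, had 109130, 70082 and 116560 normalized counts in WT input and 82477, 56260 and 138120 in TG input. In its polysome libraries it had 98096, 68274 and 86622 in WT and 79152, 55718 and 98630 in TG. For Sv2c the polysome values came to 10210, 14767 and 6546 in WT, against 9902, 17126 and 7493 in TG. The median of the 12 cortical markers lay below its group mean in number 2 of every group (-0.59 to -0.43), and that of the 17 medium spiny markers above it (0.63 to 0.78). Whether these markers account for the difference between numbers was not tested.

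The polysome-to-input difference also varied by number. Its median over the 32 genes was -0.16, -0.23 and -0.59 in numbers 1, 2 and 3 of WT and -0.29, -0.12 and -0.73 in those of TG. It was negative in each of the 6 pairs and farthest from 0 in number 3 of both genotypes. In number 3 the blood markers lay above their group mean in all 4 groups (0.55 to 0.81), as did the choroid plexus and ependymal markers (0.53 to 2.18). So did the thalamic (0.40 to 0.45), cortical (0.17 to 0.50), microglial (0.15 to 0.33) and striatal interneuron markers (0.00 to 0.21). The medium spiny (-0.42 to -0.31), oligodendrocyte (-0.29 to -0.04) and oligodendrocyte precursor markers (-0.15 to -0.00) lay below it. Choroid plexus and ependymal markers were also above it in number 2 of WT (0.84 in input, 0.79 on polysomes). The astrocyte markers lay at -0.05 and 0.09 in input and at -0.36 and -0.28 on polysomes of number 3 in WT and TG. The part of these markers in the difference was not tested. Without number 3 in any group 3 genes were called in WT (Unc13a, Pclo and Ppfia3) and 4 in TG (these and Rims2), with 2 libraries left in each group and 2.00% and 2.64% of all genes called. Without number 1 these were Unc13a and Sncb in WT (1.25% of all genes) and Unc13a in TG (2.65%), and without number 2 Unc13a in both (0.814% and 1.92%). Unc13a was the 1 gene of the 32 that passed under each of the 17 alternatives run, in WT (adjusted p up to 0.0428) and in TG (up to 0.0304).

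**Figure D5:**
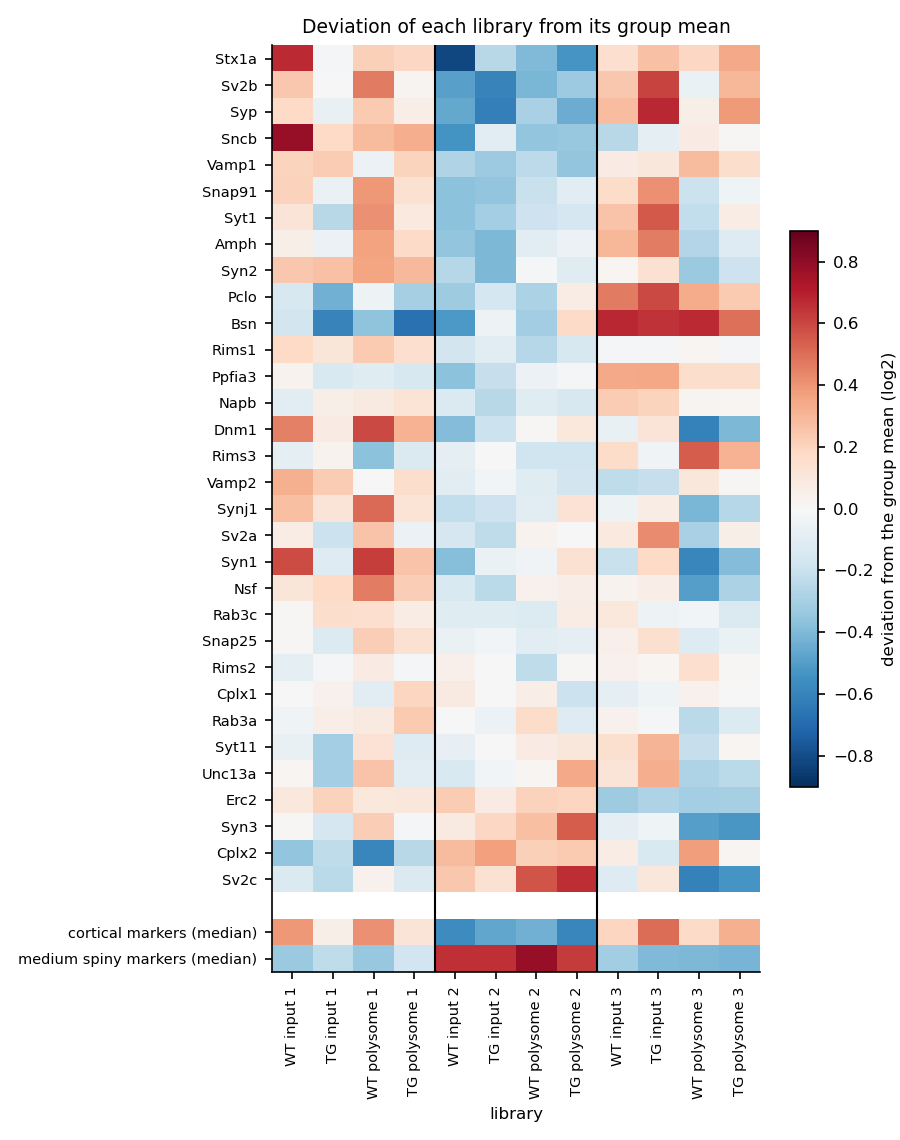
Deviation of each library from its group mean (log2, colour) for the 32 genes and, below, the median of 12 cortical and 17 medium spiny markers; columns are the 12 libraries ordered by number. In number 2 the genes at the top of the panel and the cortical markers (-0.59 to -0.43) are below, and Syn3, Sv2c and the medium spiny markers (0.63 to 0.78) above, their group means.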

How the data were processed

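RNA of 12 libraries was measured, 3 in each of 4 groups taken from the samples' titles. The authors deposited 1 table of signal, normalized estimated counts per gene that are not whole numbers, made with Salmon 1.1.0, R 3.6.2 and DESeq2 1.26.0 on GRCm38 per the submitters' processing notes. The library kit was a stranded one for total RNA, per the labels' protocols. No source used here gives the annotation, the strand setting or whether input and polysome libraries were quantified alike, and the last bears on each polysome-to-input value. Whole reads could not be recovered (32.4% to 45.9% of values up to 20 reads were whole to 0.1 read), so no count test was run. The depth was read from the spacing of low values.

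Genes with a value of at least 10 in at least 3 fitted libraries were tested with limma 3.58.1 (eBayes with a variance trend, R 4.3.3) on log2(value + 1), adjusted by Benjamini-Hochberg over all genes, at a threshold of 0.05. Differences on this scale understate those of low genes. Genotype was fitted on 6 libraries, and polysome against input and the interaction on 12. Nothing in the labels says that the samples of a group are separate animals. The p-values then reflect the spread among these libraries alone, and some of it may be technical.

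Libraries share the numbers 1 to 3. Deviations from group means correlated at 0.24 to 0.55 in 18 same-number pairs and at -0.41 to -0.00 in the others, so the numbers were taken to pair the libraries. The pairing rests on these values and the shared numbers alone: what a number means is not labelled. The block was the number for genotype, and the number within genotype otherwise.

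Symbols, coordinates, lengths, shared 31-base sequences and start codon sequences came from GENCODE mouse release M21 (for each gene the complete coding transcript with the longest coding sequence), which 21465 of the 21492 identifiers matched. Values in each library are given for every member called in a comparison and, in comparisons with fewer than 3 called, for the member of each role with the smallest p. Of the other presynaptic genes, the 2 largest rises and falls among those called are named. Rab3a, Syp, Sv2c on polysomes, Cplx1 and Erc2 were added after their values were seen. No measured value was used to choose the members, but they and the lists were chosen with earlier results of these data known. As alternatives the values were scaled by trimmed means of M values (TMM, with the usual trims) before the log, filters, pseudocount, variance trend and the set of fitted libraries were varied, the replicate block was added, and libraries were left out one by one. Removal of the coding length trend, leaving out a number in every group, and the paralog test with and without the block were added after the data were seen. The fits were tested on simulated data with independent noise in each library. That simulation held no deviation shared by number, unlike these libraries, so it cannot decide between the fits with and without the block.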

Additional observations from a re-analysis of the deposited data

How the results depend on the processing

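In all alternatives of the genotype comparisons and the interaction, 0 of the 32 genes was called. TMM scaling, a pseudocount of 10, other filters and no variance trend gave 8 to 10 called genes in WT and 9 to 11 in TG for polysome against input. The replicate block gave 14 in WT. Fitting the 6 TG libraries alone gave 7 in TG, removing the coding length trend 2 in WT and 3 in TG, and leaving out number 1, 2 or 3 in every group 2, 1 and 3 in WT and 1, 1 and 4 in TG. With 1 library left out the count was 4 (without WT input 3) to 8 in WT, with 5 without polysome 3, and 5 (without TG input 3 or polysome 3) to 11 in TG, with 6 without input 2 or polysome 1. Among all genes 14.0% in WT and 18.1% in TG were called without the block, and 29.8% and 33.2% with it. With the coding length trend removed 5.73% and 8.56% were called, and without a number 0.814% to 2.00% and 1.92% to 2.65%. The shares under the other alternatives are not given here, so these counts alone are not a result about the members. No called difference changed sign. The cause of the other changes was not tested, and fits without a number have 2 libraries a group.

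Differences that did not pass changed sign in 27 cases. These were counted over the alternatives for the gene of each role with the smallest p and, between genotypes, Shank3. By comparison they were 5 in input, 7 on polysomes and 15 in the interaction. In 97, 94 and 95 cases the sign and the outcome of the test stayed, and 1 case on polysomes came to pass. In TG against WT input Syt1 ran from -0.385 to 0.0443 with 1 library left out and was 0.0734 without number 1, and Rims3 was 0.0126 without number 3. On polysomes, with 1 library left out, Syt1 ran from -0.254 to 0.0609, Amph from -0.244 to 0.0671, Stx1a from -0.463 to 0.00134 and Unc13a from -0.0817 to 0.218. Syt1 was 0.0176 without number 1 and Unc13a -0.0719 without number 2. In the interaction, with 1 library left out, Synj1 ran from -0.144 to 0.318, Syt1 from -0.188 to 0.241, Napb from -0.0164 to 0.211, Rims2 from -0.169 to 0.0204 and Syn3 from -0.501 to 0.0335. Rims2 was 0.0246 without number 1 and 0.00487 without number 3, and Synj1 -0.0319 without number 2. The replicate block moved Shank3 on polysomes past the threshold (adjusted p = 0.0205).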
